A study of Rattus norvegicus with 8 samples.

Results

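The mRNA content of blood was compared between a control group of F344 rats and a group given NNK, a nitrosamine of tobacco smoke made from nicotine that causes lung cancer in rats, with 1 blood sample from each. Members of the comparison were the array probes designed to RefSeq mRNAs, and a probe was kept where its signal was well above background on both blood arrays. Of 15323 mRNA probes among 24684 RNA probes in all, 8234 were compared, and they named 7545 genes. The 2 blood arrays were part of 8, the other 6 holding lung tumors and matched normal lung from NNK-treated rats. Both blood samples were clots from whole blood of male animals at week 95, 1 from the control group and 1 from the NNK treatment group, the group that the lung tumors came from. The sources used here do not give how many rats contributed to each clot, or the dose of NNK. With 1 array per group no test was possible, so each difference below is a fold change between 2 arrays with no replicate check, and a gene is called higher or lower where it differed at least 2-fold.

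Peripheral blood mixes red cells, platelets and several kinds of white cell, and each carries its own mRNAs. Natural killer (NK) cells and cytotoxic T cells store granzymes, proteases that enter a target cell through pores made by perforin, and rat NK cells read class I molecules through the Ly49 (Klra) receptors. Platelets have no nucleus and keep mRNAs of the megakaryocyte they came from, while the youngest red cells, the reticulocytes, still carry globin and haem synthesis mRNAs. In such bulk RNA, fewer cells of a type and less RNA per cell cannot be told apart.

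The labels of the NNK blood sample disagreed with each other. Its title, source and tissue named a blood clot, while its description repeated that of lung cancer tissue 3. The array held blood-type RNA. The surfactant gene Sftpc had a processed signal of 7.44 on the NNK blood array and 2.43 on the control blood array, against 35860 to 97160 on the 6 lung arrays. Alas2, the first enzyme of haem synthesis in red cells, stood at 659600 and 578200 on the NNK and control blood arrays, against 2219 to 21920 on the lung arrays. Over the mRNA spots, the log2 signals of the NNK blood array correlated with the control blood array at r = 0.925 and with lung tumor array 3 at r = 0.634, a correlation across probes of single arrays. Of the other lung markers, Aqp5 was well above background on neither blood array and Sftpb on the NNK array alone, with a signal of 34.3 against at least 188700 in lung. Sftpa1 (log2 difference 0.07), Ager (-0.42), Sftpd (-1.16) and Scgb1a1 (-1.53) were above background in both samples. Some members of the lung epithelium list were bright in control and NNK blood alike. These were Nkx2-1 (log2 signals 15.41 and 15.31), Cldn18 (13.47 and 13.17) and Krt19 (13.43 and 13.29). Whether their probes read only these genes was not tested. Across the 15 lung epithelium genes compared, 3 were at least 2-fold higher in NNK blood, Lpcat1 (1.62), Napsa (1.53) and Hopx (1.11), and 3 were lower, with a median of -0.38. Lamp3, Scgb3a1, Cdh1 and Krt8 were, like Sftpb, above background on the NNK array alone, and Cav1 on the control array alone. These members were named after their values were seen, and the part of lung RNA in the blood differences was not tested.

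Of the 8234 mRNA probes, 1735 were at least 2-fold higher in NNK blood, 21.1% of those compared. A further 1119 were at least 2-fold lower, which is 13.6%, and 5380 lay within 2-fold. By gene, with the brightest probe standing for each, 1597 of 7545 were higher (21.2%) and 1013 were lower (13.4%). Each list count below is to be read against these shares. The list counts hold only genes compared, so members above background on 1 array alone are not in them. Differences of at least 4-fold were less balanced, with 413 probes higher and 151 lower. The blood arrays differed 2-fold in 34.7% of mRNA probes. Pairs of normal lung arrays treated the same way differed in 1.46% to 2.34%, and pairs of lung tumor arrays in 1.19% to 5.85%. For pairs of 1 normal and 1 tumor lung array the range was 26.4% to 31.9%. Every lung array was brighter, with a median processed mRNA signal of at least 356. The medians in blood were 26.1 (control) and 72.0 (NNK). The lung shares therefore cannot stand for the replicate noise of the dimmer blood arrays. Probes printed in 10 spots had a median SD over the spots of 0.143 (log2) on the control array and 0.149 on the NNK array, which is the spotting error of 1 array and not the spread between rats. The long noncoding probes on the same arrays leaned the other way. Of 3381 compared, 28.9% differed 2-fold, and 37.1% of those were higher in NNK blood against 60.8% of the changed mRNA probes. Both kinds of probe were normalized together, and the mRNA share was 51.9% when mRNA spots were normalized alone.

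**Figure D1:**
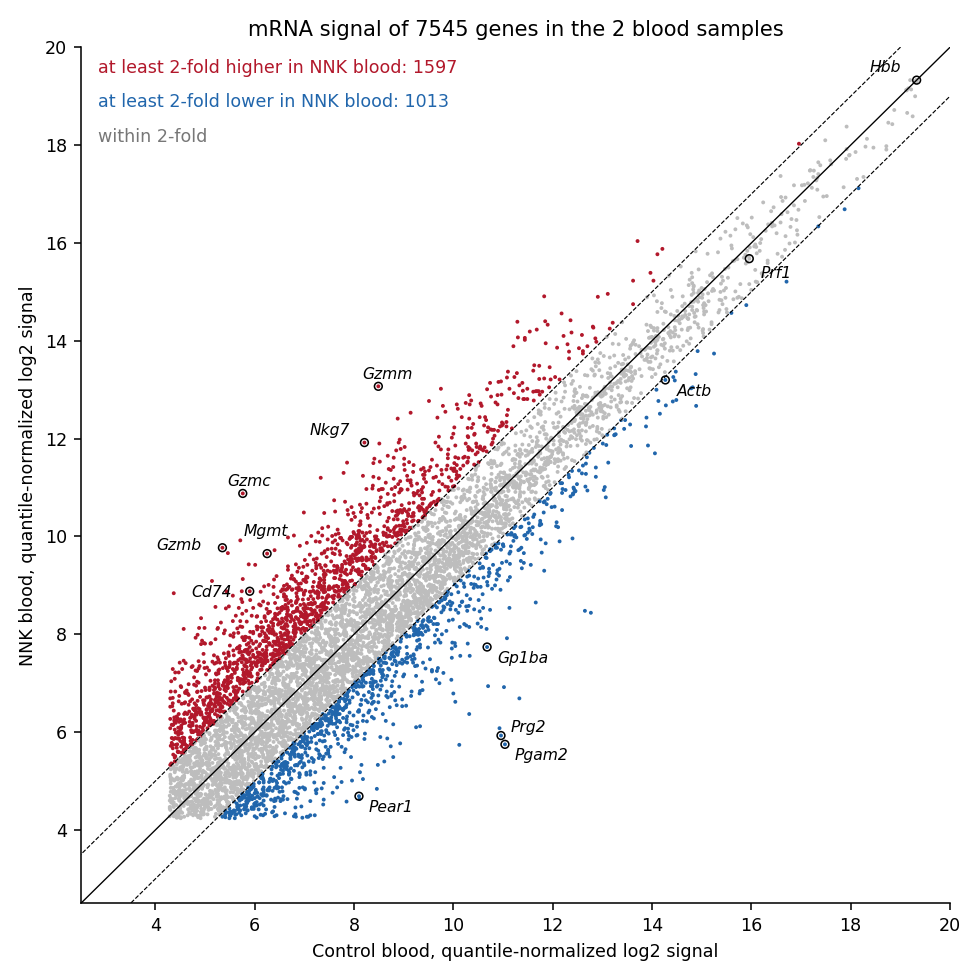
Quantile-normalized log2 signal of each gene in control blood (x axis) and NNK blood (y axis), 1 array each. The solid line marks equal signal and the dashed lines 2-fold, with 1597 genes above (red) and 1013 below (blue); granzymes and Nkg7 stand far above the line, Pgam2 and Prg2 far below it, and Hbb at the top of the scale on the line.

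The balance of higher and lower genes depended on how the arrays were scaled. The control array was dimmer, with a median processed mRNA signal of 26.1 against 72.0, although 60.5% and 61.7% of mRNA spots were well above background on the control and NNK arrays. Quantile normalization gave a median log2 difference of -0.03 over the compared probes. Setting the 75th percentiles equal instead gave -0.23, and 44.7% of the changed probes were then higher in NNK blood. Setting the medians of the probes above background on both arrays equal gave 47.7%. The shift fell on bright probes. When probes were split into 3 equal parts by signal, the median difference of the brightest part was -0.09 after quantile normalization and -0.83 after the 75th percentile shift, where 1101 probes were lower and 245 higher. Over all genes, 19.2% were higher and 23.4% lower after that shift, and list counts under it are given beside these shares. They do not match a list of bright genes, since 1101 of 2745 probes were lower in the brightest part and 314 of 2745 in the dimmest. Over 4 normalizations, the authors' own included, 1322 genes were higher and 811 lower by 2-fold in every one of them, and the genes named below as the largest differences come from these.

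Cytotoxic lymphocyte genes led the mRNAs that were higher in NNK blood. Gzmc, a granzyme, had a log2 signal of 5.76 in control blood and 10.88 in NNK blood, a log2 difference of 5.12, the largest among the higher genes. Gzmm, granzyme M, went from 8.49 to 13.07 (4.58), and Gzmb, granzyme B, which activates caspases in the target cell, from 5.35 to 9.77 (4.42). Gzmk was higher by 3.86 and Gzma by 3.64. All 5 granzymes were picked from the genes higher under each of the 4 normalizations, so their agreement there is not a separate check. Granzyme probes may share signal between near-identical family members, so which of them carried it is uncertain.

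Receptors and adaptors of the same cells were higher too. The Ly49 receptor probes Klra5 (5.71 in control blood, 9.92 in NNK blood, difference 4.21) and Ly49s7 (5.46 and 9.66, difference 4.20) stood among the 15 largest. Another 3 were well above background on the NNK array alone. Klra1 was at least 25.7-fold higher, Ly49i5 at least 22.5-fold and Ly49s5 at least 15.7-fold, each bound being the NNK signal against the lowest level that counted as above background on the control array. The Ly49 genes are close copies in 1 cluster, so these 5 probes are not 5 independent observations. Nkg7, a protein of cytotoxic granules, went from 8.21 to 11.92 (3.71), and Cd247, the zeta chain that signals for the T cell receptor and for NK receptors, from 7.79 to 11.30 (3.52).

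The NK and cytotoxic list did not move as a block. Of its 25 genes compared, 17 were higher and 3 lower, against 21.2% and 13.4% of all genes, with a median log2 difference of 1.74. Perforin, Prf1, was bright in both samples and slightly lower in NNK blood, at 15.96 and 15.68 (-0.28), although it works together with the granzymes. Klrk1, the NKG2D activating receptor, gave 10.27 and 9.99 (-0.28). Klrd1, the CD94 chain, was higher by 1.74. Ncr1, the NKp46 receptor that marks NK cells, was above background only on the NNK array and close to the limit, with a bound of 1.04-fold. The 3 lower members were Cd226, an adhesion receptor that platelets also carry (-2.45), Klri2, a lectin-like receptor chain of NK cells (-2.01), and Sh2d2a, a T cell adaptor (-1.33). Within this list the granzymes and Ly49 receptors differed from perforin and NKG2D, which stayed within 2-fold.

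**Figure D2:**
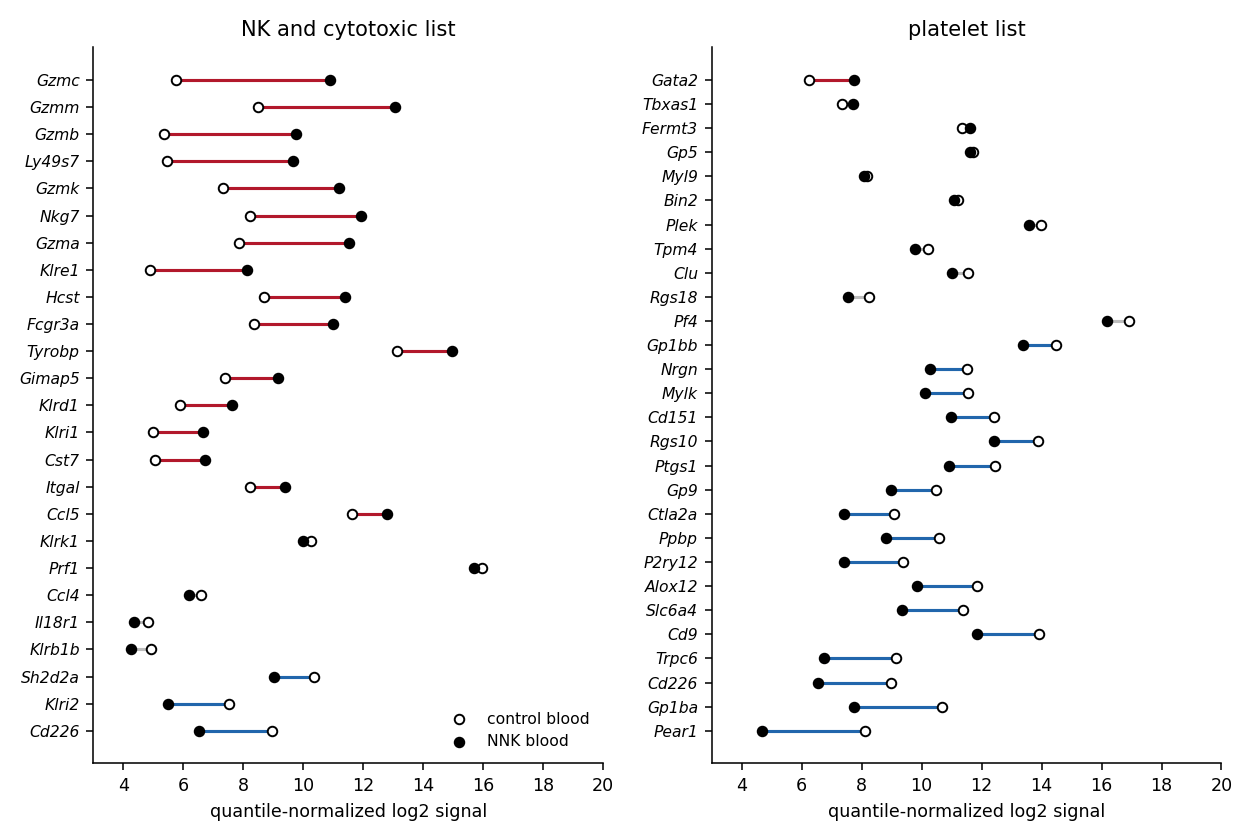
Quantile-normalized log2 signal in control blood (open circles) and NNK blood (filled circles) of the 25 NK and cytotoxic genes and the 28 platelet genes compared, 1 array each, sorted by difference. Red and blue lines mark genes at least 2-fold higher or lower in NNK blood; the cytotoxic list holds 17 red and 3 blue lines, the platelet list 1 red and 17 blue.

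The promoters of 3 of these genes are shown because Gzmb and Gzmc, which lie next to each other among the genes compared, and Nkg7 moved together. The windows run from 250 bases before to 50 bases after the start of the gene in RefSeq's GRCr8 assembly, at chr15:34462420-34462719 (minus strand) for Gzmb, chr15:34439957-34440256 (minus strand) for Gzmc and chr1:102981247-102981546 (plus strand) for Nkg7, each read 5′ to 3′ along the gene. Capitals mark TGTGGT, the core that Runx factors bind, on either strand.
Gzmb: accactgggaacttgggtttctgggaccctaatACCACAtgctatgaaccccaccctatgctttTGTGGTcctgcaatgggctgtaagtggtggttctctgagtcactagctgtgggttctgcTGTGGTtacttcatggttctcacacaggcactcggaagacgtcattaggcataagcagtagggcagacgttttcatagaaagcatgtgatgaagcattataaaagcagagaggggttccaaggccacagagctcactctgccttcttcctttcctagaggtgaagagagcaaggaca
Gzmc: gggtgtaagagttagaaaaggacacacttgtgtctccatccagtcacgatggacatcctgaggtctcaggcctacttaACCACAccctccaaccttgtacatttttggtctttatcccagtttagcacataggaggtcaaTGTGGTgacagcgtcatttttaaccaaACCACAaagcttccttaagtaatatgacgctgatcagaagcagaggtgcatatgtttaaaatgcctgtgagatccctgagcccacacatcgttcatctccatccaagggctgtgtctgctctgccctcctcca
Nkg7: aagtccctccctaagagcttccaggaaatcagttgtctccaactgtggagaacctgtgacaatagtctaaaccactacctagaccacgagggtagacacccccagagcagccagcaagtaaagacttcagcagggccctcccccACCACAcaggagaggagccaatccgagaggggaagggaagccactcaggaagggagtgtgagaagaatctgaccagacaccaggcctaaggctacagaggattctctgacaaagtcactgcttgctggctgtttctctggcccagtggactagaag
The core occurred 3 times in the Gzmb window, 3 times in Gzmc and once in Nkg7. A total of 10 short motifs were searched on both strands in 6 gene lists, and these windows were picked after the search. TGTGGT was found in 12 of the 20 cytotoxic list promoters at hand and in 8 of the 13 that were higher, against 13.5% of the 6238 compared genes with a promoter and 16.9% of all 27457 promoters. It was also in 8 of 21 promoters of the platelet list, whose genes were mostly lower, in 7 of 21 of the T cell list, in 8 of 29 of the erythroid list and in 8 of 48 of the interferon list. The Ets core AGGAAG was in 12 of the 20, against 34.7%. Of the 20, the erythroid zinc-finger core AGATAA was found in 2 promoters, the class II cores GATTGG and, separately, AGCAAC in 2 and 4, and the longer Ets site CCGGAAG in 1. The interferon-stimulated response element was in 3, the gamma-activated site in 5, the AP-1 site TGANTCA in 3 and the T-box site GGTGTGA in 2. A match describes letters in the window and does not show that a factor bound there.

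T cell genes were also higher, unevenly. Of 27 compared, 16 were higher and 1 was lower, with a median of 1.63. After Cd247 came Cd8a, the co-receptor of cytotoxic T cells (8.39 in control blood and 11.50 in NNK blood, 3.11), Skap1, an adaptor for T cell adhesion (2.90), and Cd7 (2.80). Among the defining markers, Zap70 (2.34), Cd3e (2.13), Lck (2.12) and Cd3g (1.97) were higher. Cd3d (12.73 and 12.47, -0.26) and Cd2 (13.40 and 12.87, -0.54) were not, and Cd5 was above background on the control array alone. Chains of 1 CD3 complex thus differed from each other on this array. Cd96, an adhesion receptor of T and NK cells, was the only member compared that was lower by 2-fold (-1.02). Like Cd5, Thy1 (log2 signals 5.94 and 2.53) and Ccr7 were above background on the control array alone. Cd6, Sh2d1a, Foxp3, Camk4 and Tox were above it on the NNK array alone. Cd8b did not follow Cd8a (14.02 and 14.06, 0.05).

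B cell genes showed 12 higher and 1 lower of 21, with a median of 1.47 that became 0.85 after normexp background correction. Blnk, the adaptor that links the B cell receptor to its signalling enzymes, went from 5.88 to 9.43 (3.56). Cd72 (2.71), Cd24 (2.46), Fcrla (2.16) and Cd22, an inhibitory co-receptor (2.06), followed. Cd79b, a signalling chain of the B cell receptor, was at least 3.61-fold higher, being above background on the NNK array alone. Pax5, the factor that fixes B cell identity, was near the lower limit in both samples (5.15 and 5.02, -0.13), and Bach2 was lower (-1.02). None of the 7 plasma cell genes compared differed 2-fold (median -0.23). Mzb1, a chaperone of antibody secretion, had signals of 9.49 and 9.26, while Sdc1 and Tnfrsf17 were above background on the NNK array alone, at least 2.45-fold and 2.17-fold higher.

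MHC class II presentation genes had a median of 1.83, with 9 of 14 higher and none lower. That median was above the 1.74 of the NK and cytotoxic list, but below it after the 75th percentile shift (1.43 and 1.79) and in the authors' values (1.47 and 2.14). RT1-Bb, a class II beta chain, went from 8.51 to 11.90 (3.39), and its partner RT1-Ba from 10.25 to 12.73 (2.48). Cd74, the invariant chain that guards the class II groove, went from 5.90 to 8.88 (2.98), and RT1-DMb, which helps load peptide, from 8.12 to 10.65 (2.52). RT1-Da (2.42) and RT1-Db1 (2.38) are named after their values were seen, because they lie beside the RT1-B pair among the genes compared, and all 4 were higher. RT1 genes are polymorphic relatives, and probe sharing among them was not tested. Ctss, the protease that trims the invariant chain, was higher by 1.92. Not every member was higher. RT1-DMa (12.70 and 13.29, 0.59), RT1-Ha (12.45 and 12.39, -0.06) and RT1-DOa (-0.59) stayed within 2-fold. RT1-DOb was above background on the control array alone (5.54, against 3.40 on the NNK array), and Ciita on neither. The MHC class I list behaved differently. Of 23 genes compared, 3 were higher, Tap1 (2.35), Psmb8 (2.00) and RT1-A2 (1.11), and RT1-CE4 was lower (-1.28), with a median of -0.37. After the 75th percentile shift 10 of these 23 were lower, against 23.4% of all genes and 1101 of 2745 probes in the brightest part.

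The class II promoters are printed because the 4 chain genes moved together and class II promoters are known for shared upstream boxes. Capitals mark GATTGG, the core of the Y box, and AGCAAC, part of the X box, on either strand. The GRCr8 windows are chr20:4576807-4577106 (plus strand) for RT1-Ba, chr20:4604069-4604368 (minus strand) for RT1-Bb, chr20:4515165-4515464 (plus strand) for RT1-Da and chr20:4560113-4560412 (minus strand) for RT1-Db1.
RT1-Ba: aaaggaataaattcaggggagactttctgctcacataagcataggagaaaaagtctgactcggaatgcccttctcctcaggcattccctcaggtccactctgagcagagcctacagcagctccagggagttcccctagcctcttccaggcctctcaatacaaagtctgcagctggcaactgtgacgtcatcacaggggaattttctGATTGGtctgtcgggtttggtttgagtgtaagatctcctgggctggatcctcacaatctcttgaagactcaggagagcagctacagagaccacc
RT1-Bb: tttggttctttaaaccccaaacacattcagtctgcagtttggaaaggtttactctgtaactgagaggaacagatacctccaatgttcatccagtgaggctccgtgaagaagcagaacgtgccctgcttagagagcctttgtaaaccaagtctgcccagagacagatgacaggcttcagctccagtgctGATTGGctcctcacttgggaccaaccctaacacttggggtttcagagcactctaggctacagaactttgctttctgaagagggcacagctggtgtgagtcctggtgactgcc
RT1-Da: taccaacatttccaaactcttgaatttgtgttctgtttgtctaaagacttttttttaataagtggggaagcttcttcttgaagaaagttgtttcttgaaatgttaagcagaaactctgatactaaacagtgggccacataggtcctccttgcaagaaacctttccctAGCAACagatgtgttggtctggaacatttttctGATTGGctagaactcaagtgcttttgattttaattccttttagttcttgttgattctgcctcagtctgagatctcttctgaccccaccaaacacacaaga
RT1-Db1: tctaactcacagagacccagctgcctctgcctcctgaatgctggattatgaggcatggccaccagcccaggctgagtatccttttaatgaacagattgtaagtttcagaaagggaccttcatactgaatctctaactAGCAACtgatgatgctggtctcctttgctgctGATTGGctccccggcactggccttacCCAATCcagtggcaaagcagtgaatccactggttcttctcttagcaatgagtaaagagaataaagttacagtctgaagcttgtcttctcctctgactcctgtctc
GATTGG began at position -44 from the gene start in RT1-Ba, -62 in RT1-Bb, -50 in RT1-Da and -81 in RT1-Db1, where a second match on the other strand stood at -55. AGCAAC stood at -83 in RT1-Da and at -113 in RT1-Db1 and was not in the other 2 windows. Of the 13 compared class II list genes with a promoter, 9 held GATTGG and 7 held AGCAAC, against 19.2% and 15% of the compared genes. Among the 8 that were higher, 4 held each. Of the other motifs, the erythroid core was in 2 of the 13, the Ets core in 4, the interferon-stimulated response element in 1, the T-box site in 1, and the longer Ets, Runx, gamma-activated and AP-1 sites in 0.

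**Figure D3:**
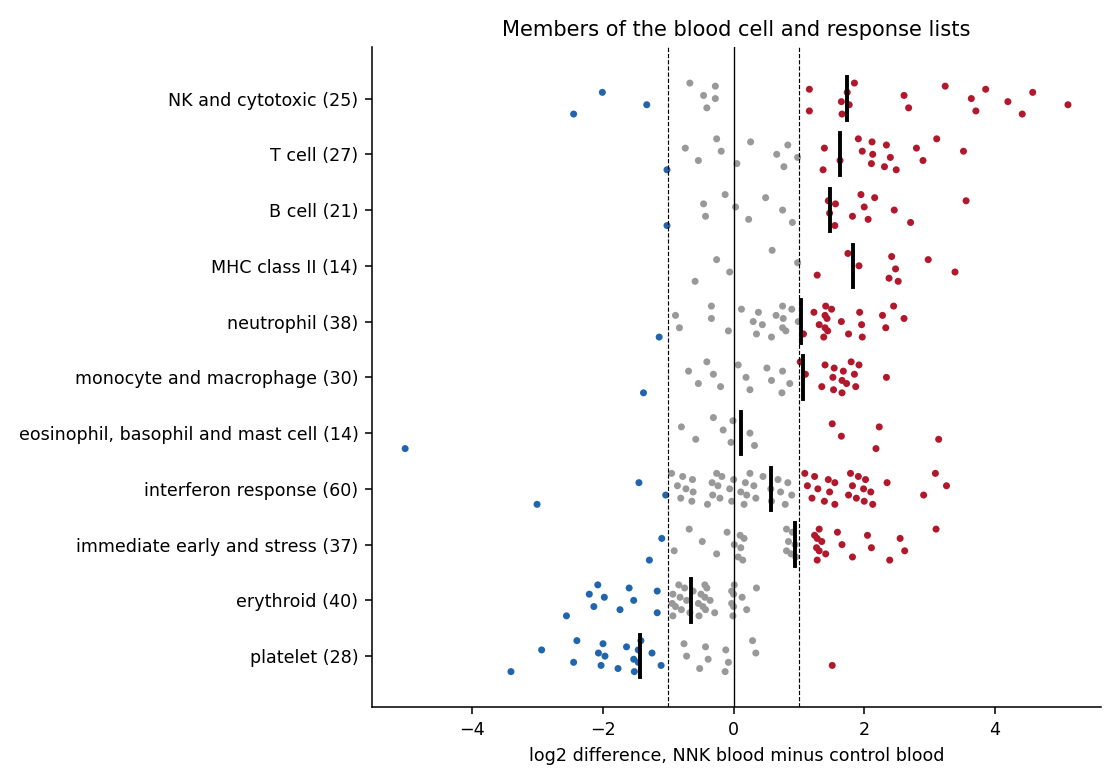
Log2 difference between NNK blood and control blood of each gene compared in 11 gene lists (number of genes in brackets), 1 array per group. Points are genes, red or blue where at least 2-fold higher or lower, bars are list medians and dashed lines mark 2-fold; the medians run from 1.83 for MHC class II to -1.44 for platelet genes.

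Myeloid genes were higher by smaller amounts. Among 38 neutrophil genes, 19 were higher and 1 lower, with a median of 1.03. Fcgr3a, an Fc receptor that NK cells and monocytes share (8.37 and 10.98, 2.61), Tnfrsf1b, the second TNF receptor (2.45), S100a8, a subunit of calprotectin (13.71 and 16.04, 2.33), and Cyba, a subunit of the phagocyte oxidase (2.28), led. S100a8 is itself a defining marker of neutrophils, and the other defining markers given here moved less or could not be compared. Csf3r, the receptor for G-CSF, was higher by 1.23 but by 0.54 after the 75th percentile shift, Mmp8 by 0.76 and Cxcr2 by 0.12, and Ngp was above background in neither sample. Ctsg, a granule protease of immature neutrophils, was lower (-1.14). After the 75th percentile shift, 12 of the 38 neutrophil genes were higher and 3 lower (median 0.67), against 19.2% and 23.4% of all genes. Of 30 monocyte and macrophage genes, 16 were higher and 1 lower (median 1.06), with Aif1 (2.34), Ctss (1.92), Adgre1, the F4/80 antigen (1.87), and Tyrobp, a signalling adaptor that NK cells also use (1.85), at the top and the scavenger receptor Cd36 lower (-1.38). Among the monocyte markers, Cd68 was higher by 1.10 but by 0.57 after the 75th percentile shift, while Csf1r (0.86), Cd14 (0.19) and Cx3cr1 (0.07) stayed within 2-fold.

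Granule genes of eosinophils, basophils and mast cells went in both directions. Prg2, the major basic protein of eosinophil granules, had a signal of 10.96 in control blood and 5.93 in NNK blood, a difference of -5.03 that was second in size among the lower genes. Epx, the peroxidase of the same cells, was above background in neither sample. The mast cell proteases Mcpt10 (3.14) and Cma1 (2.23) and the basophil protease Mcpt8 (8.13 and 10.31, 2.18) were higher, as was Mcpt9 (1.65). Fcer1a, the IgE receptor alpha chain, was above background on the NNK array alone and at least 2.20-fold higher, and Cpa3 was above background there without reaching a bound above 1. Ms4a2, the receptor's beta chain, gave 5.41 and 5.40 (-0.01). The list counted 5 higher and 1 lower of 14 with a median of 0.12, or -0.06 after the 75th percentile shift.

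Platelet genes were mostly lower, with 17 of 28 lower and 1 higher, against 13.4% and 21.2% of all genes, and a median of -1.44, or -0.97 in the authors' values. Pear1, the platelet endothelial aggregation receptor, went from 8.10 to 4.69 (-3.41). Gp1ba, the von Willebrand factor receptor chain, went from 10.68 to 7.74 (-2.94), and Trpc6, a calcium channel, from 9.15 to 6.74 (-2.40). Among the defining markers, the chemokine Ppbp (-1.77), Gp9 (-1.53) and Gp1bb (-1.11) were lower. Pf4, platelet factor 4, gave 16.93 and 16.17 (-0.76). In the authors' values Gp1bb was at -0.72, and 13 of the 28 genes were lower. Gata2, a factor that megakaryocytes share with mast cells and basophils, was the only member higher (1.51). The thromboxane receptor Tbxa2r, the ADP receptor P2ry1 and Gng11 were above background on the control array alone, with bounds of at least 1.90-fold, 1.88-fold and 1.27-fold lower. Both samples were clots, and whether they held platelets alike was not tested.

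Erythroid genes leaned lower, by an amount that depended on the scaling. Of 40 compared, 10 were lower and none higher, against 13.4% and 21.2% of all genes, with a median of -0.64. The adult globins stood at the top of the scale in both samples, Hbb at 19.33 in each and Hba-a1 at 19.12 and 19.13, and Alas2 at 19.20 and 19.33 (0.13). The highest processed signal was 658488 on the control array and 659643 on the NNK array, and no spot was marked as saturated on either. Before normalization, Hbb, Hbb-b1 and Hbb-bs already stood at or close to that highest signal on both arrays, and Alas2 on the NNK array. Whether they were cut off there was not tested. Quantile normalization also makes the highest values of both arrays equal, so no change can be read from Hbb, Hba-a1 and Alas2. Among the other markers, Ahsp, the alpha globin chaperone (-0.84), Slc4a1, the band 3 anion exchanger (-0.82), Klf1 (-0.50), Epb42 (-0.43) and Gata1 (-0.36) were lower by less than 2-fold. Larger differences were found in Epor, the erythropoietin receptor (8.72 and 6.51, -2.21), Rhag (-2.14) and Car1, a carbonic anhydrase (-2.08). After the 75th percentile shift 34 of the 40 were lower, and the median was -1.56. This compares with 23.4% of all genes and 1101 of 2745 probes in the brightest part. The 34 include Hbb, Hbb-b1 and Hbb-bs (-1.11 each), which stood at the top of the scale. In the authors' values 10 were lower and the median was -0.41.

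Interferon-response genes split into a part that was higher and a part that was not. Of 60 compared, 24 were higher (40%, against 21.2% of all genes) and 3 lower, with a median of 0.57. After the 75th percentile shift 16 of the 60 were higher and 10 lower, against 19.2% and 23.4% of all genes. Irf1, a factor induced by interferon gamma, went from 9.51 to 12.77 (3.26), Ifi27l2b from 11.83 to 14.91 (3.09), the immunoproteasome subunit Psmb10 from 8.85 to 11.76 (2.91) and the peptide transporter Tap1 from 9.02 to 11.36 (2.35). The antiviral GTPase Mx2 went the other way, from 11.66 to 8.65 (-3.01), as did Trim21, an antibody receptor in the cytosol (-1.45), and Lgals9, a galectin (-1.04, but -0.50 in the authors' values). The interferon-stimulated response element stood in 30 of the 48 compared list genes with a promoter, against 3.59% of compared genes, and in 9 of the 19 that were higher. The gamma-activated site TTCNNNGAA was in 10 of the 48 and 6 of the 19, against 7.31%.

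Immediate early and stress genes counted 17 higher and 2 lower of 37, with a median of 0.94 that was 0.51 after the 75th percentile shift. Junb, an AP-1 subunit, went from 11.29 to 14.39 (3.10), Cebpb, a factor of myeloid and acute-phase genes, from 11.44 to 14.06 (2.62), Txnip, which binds thioredoxin, from 11.68 to 14.23 (2.55) and Ddit4, an inhibitor of mTORC1, from 7.95 to 10.34 (2.39). Dusp6 was lower (-1.29). Egr2 was lower as well (-1.10), but its sign turned to 0.12 after normexp background correction. The glucocorticoid list shared Ddit4 and counted 3 higher and 1 lower of 13 (median 0.34), with Arrdc2 (1.56) and Tsc22d3, the leucine zipper protein GILZ (1.12, or 0.48 after the 75th percentile shift), higher and Map3k6 lower (-2.01).

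Cytokine genes included 11 higher and 4 lower of 28 (median 0.41), against 21.2% and 13.4% of all genes. Ltb, lymphotoxin beta, went from 9.79 to 12.67 (2.88), Il4r from 8.38 to 11.04 (2.66) and Tnf from 4.97 to 7.60 (2.63). Csf3, which encodes G-CSF, went from 9.05 to 6.54 (-2.51), and Il15, a growth factor of NK cells, from 7.97 to 6.71 (-1.26), with Il24 (-1.12) and Ifnar1 (-1.07) also lower. Among 24 chemokine and receptor genes 8 were higher and 2 lower (median -0.05, or 0.17 after the 75th percentile shift). The receptor Cxcr3, found on effector T and NK cells, went from 6.98 to 9.38 (2.40), Cxcl16 from 7.16 to 9.30 (2.14), Cxcr4 from 10.89 to 12.70 (1.82) and Cxcl2 from 5.25 to 6.78 (1.53). The monocyte attractant Ccl2 was lower (9.23 and 7.35, -1.88). Ppbp, counted above among platelet genes, was the other lower member.

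Genes that handle NNK damage were of interest because NNK forms methylating and pyridyloxobutylating intermediates. Mgmt, the methyltransferase that repairs O6-methylguanine, went from 6.25 in control blood to 9.65 in NNK blood, a difference of 3.40 that was at least 2-fold in each normalization. Within the list of alkylation and base excision repair, 6 of 22 genes were higher (27.3%, near the 21.2% of all genes) and 1 was lower, with a median of 0.32. The uracil glycosylase Ung (1.93), the glycosylase Nthl1 (1.92) and the flap endonuclease Fen1 (1.32) were higher and the glycosylase Neil1 was lower (-1.05). These were dim probes, and after normexp background correction 1 gene of the list was higher and none lower. Of 18 p53 target genes 4 were higher (22.2%, near the share of all genes) and 1 lower (median -0.06). The higher ones were Ddit4, Apaf1, the apoptosome scaffold (2.01), Btg2 (1.27, or 0.52 after the 75th percentile shift) and Tp53i11 (1.23), with Rrm2b lower (-1.13).

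Enzymes of xenobiotic metabolism leaned lower. Of 49 compared, 10 were lower and 5 higher (median -0.43), against 13.4% and 21.2% of all genes. Ephx1, microsomal epoxide hydrolase, went from 11.13 to 8.54 (-2.60), the glutathione transferase Gsta1 from 10.53 to 8.47 (-2.06), Nat8 from 7.04 to 5.17 (-1.87) and Mgst2 from 12.87 to 11.22 (-1.65). Akr1b1, aldose reductase, went from 7.67 to 10.14 (2.48), and the glucuronosyltransferases Ugt1a6 (2.04) and Ugt1a1 (1.79) and the microsomal transferase Mgst1 (1.65) were higher. The Ugt1a genes share their last exons, so their probes may read the same transcripts. The Nrf2 list had 5 higher and 8 lower of 35 (median -0.41). Tkt, transketolase, went from 11.30 to 14.07 (2.77), and Hmox1 (1.68), Osgin1 (1.66) and Txnrd1 (1.32) were higher, while Me1 (-1.83), Prdx6 (-1.53), Prdx3 (-1.25) and Cat, catalase (-1.13), were lower. After the 75th percentile shift 19 of the 35 were lower, against 23.4% of all genes and 1101 of 2745 probes in the brightest part.

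Cell cycle genes did not move one way. Of 37 compared, 7 were higher and 8 lower (median -0.34), against 21.2% and 13.4% of all genes. Stmn1, a microtubule regulator (2.29), the replication clamp Pcna (8.67 and 10.31, 1.64), Cdc6 (1.43) and E2f1 (1.22) were higher. Nusap1, a spindle protein (7.21 and 4.30, -2.91), the checkpoint kinase Chek1 (-2.05), the histone chaperone Asf1b (-1.71) and Cdca3 (-1.57) were lower. Apoptosis genes counted 8 higher and none lower of 23 compared (median 0.32), against 21.2% and 13.4% of all genes. Bad (2.52), Casp1, the inflammasome caspase (2.18), Bak1 (2.12) and Apaf1 led. Casp9 and Bid were above background on the control array alone, and Fas, Faslg, Fadd, Birc3 and Bok on the NNK array alone.

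Ribosomal protein genes were higher in 16 of 69 cases, or 23.2%, near the 21.2% of all genes, and lower in none. Their median of 0.52 turned to -0.44 after the 75th percentile shift, with 3 higher and 14 lower. Rpl18 (2.09), Rpl5 (2.03), Rpl8 (1.99) and Rps3 (1.88) led, and of these Rps3 was at 0.91 after that shift. Translation factors (11 higher and 1 lower of 33, median 0.46) and respiratory chain genes (8 higher and 5 lower of 59, median 0.26) also turned sign under that shift, to -0.10 and -0.41. Fbl, fibrillarin (3.08), Eif3d (2.46) and Eef1b2 (2.16) were higher and the poly(A)-binding protein Pabpc1 was lower (-1.20). Among the respiratory genes Atp5f1e was higher (2.40) and Ndufs4 lower (-2.19). Proteasome genes counted 10 higher and 2 lower of 35 (median 0.53), with Psma2 (2.31) and Psmb1 (2.05) higher and the inhibitor Psmf1 lower (-1.65). Unfolded protein and heat shock genes counted 7 higher (21.9%, near the share of all genes) and 2 lower of 32 (median 0.28), with Herpud1 (2.19), Pdia6 (2.12), Hspa5, the BiP chaperone (2.10), and Syvn1 (2.10) higher and Dnajc3 lower (9.33 and 6.84, -2.50). Glycolysis and hypoxia genes (5 higher and 5 lower of 30, median 0.02) and autophagy and ubiquitin genes (4 higher and 3 lower of 28, median -0.13) were balanced, and had 10 and 11 genes lower after the 75th percentile shift.

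**Figure D4:**
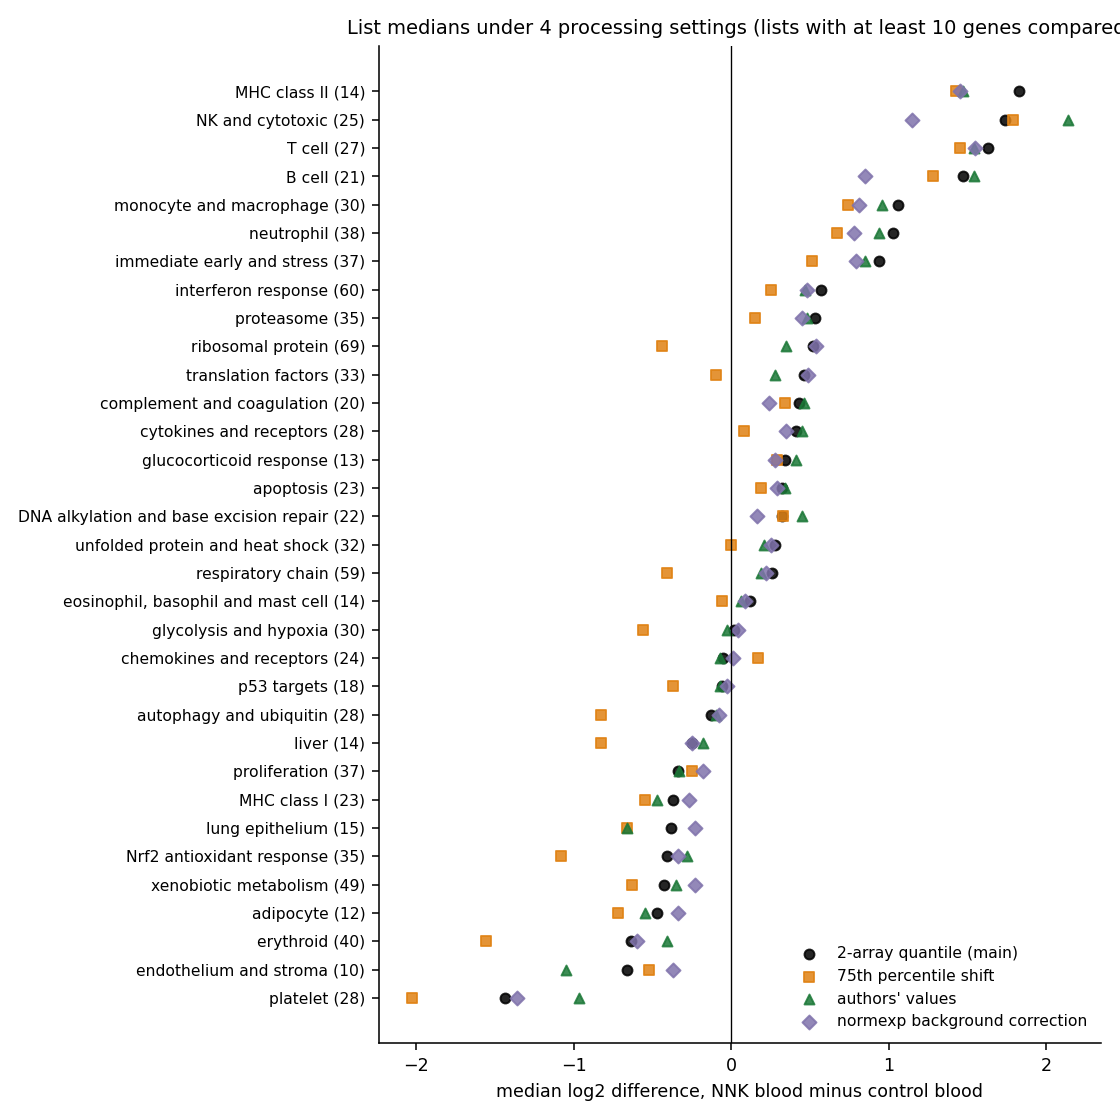
Median log2 difference between NNK blood and control blood for each list with at least 10 genes compared (number in brackets) under 4 processing settings, 1 array per group. MHC class II, NK, T and B cell lists lie to the right and the platelet list to the left under all 4 shown, while ribosomal protein, translation factor and respiratory chain lists lie on opposite sides of 0 after the 75th percentile shift (squares).

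Several of the largest differences belonged to no list. Among the higher genes, Cdhr1, a cadherin known from photoreceptors, went from 4.37 to 8.84 (4.47), Blmh, bleomycin hydrolase, from 5.14 to 9.09 (3.95), Ppp2r3a, a phosphatase regulatory subunit, from 4.57 to 8.11 (3.55), Csnk1g2, a casein kinase, from 8.88 to 12.41 (3.53) and the olfactory receptor Or1f26 from 6.99 to 10.49 (3.50). Among the lower genes, Pgam2, the muscle form of phosphoglycerate mutase, had the largest difference of all, from 11.04 to 5.75 (-5.28). Prss57, a granule protease of myeloid precursors, went from 10.93 to 6.08 (-4.85), and Or1e18, an olfactory receptor, from 11.33 to 6.69 (-4.64). Six3, a homeobox factor of the forebrain and eye, went from 10.12 to 5.74 (-4.39), and the ubiquitin-conjugating enzyme Ube2e2 from 12.77 to 8.44 (-4.33). Below these came Phf8l (-4.17), Cfap68 (-3.95), the histone methyltransferases Suv39h2 (-3.76) and Prdm9 (-3.62), Cilk1 (-3.48), Ltbp1, a binder of latent TGF-beta that platelets carry (-3.42), and Olr716 (-3.30). Each of these genes was read by a single spot on each array, so none has a technical repeat, and olfactory receptor probes may share signal between close copies.

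**Figure D5:**
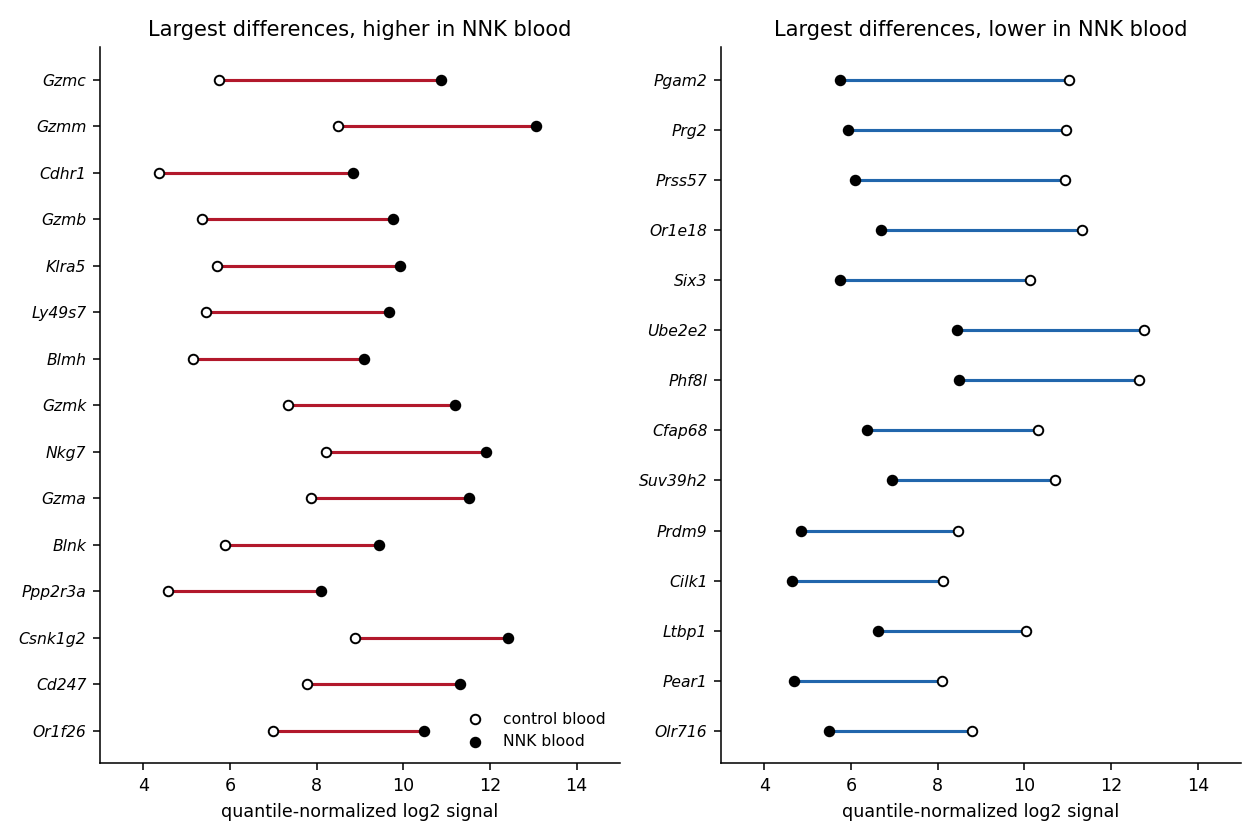
Quantile-normalized log2 signal in control blood (open circles) and NNK blood (filled circles) of the genes named for the largest differences that kept at least 2-fold under 4 normalizations, 15 higher and 14 lower, 1 array each. Differences run from 3.50 to 5.12 among the higher genes and from -3.30 to -5.28 among the lower ones.

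Some mRNAs were well above background on 1 blood array alone. On the NNK array alone there were 1023 probes with a value, of which 443 were at least 2-fold and 141 at least 4-fold above the limit. On the control array alone there were 850, of which 328 and 106 passed these folds. The highest bound for NNK blood was that of Or52d1, an olfactory receptor (at least 27.9-fold higher), followed by the 3 Ly49 receptors given above and Rab11fip2, a vesicle trafficking protein (at least 15.3-fold). For control blood they were Elf1, an Ets factor of lymphoid and erythroid cells (at least 40.7-fold lower in NNK blood), Zc3h6 (40.1-fold), the sulfotransferase Chst5 (38.9-fold), the ligand Wnt10a (33-fold) and the phosphatase Dusp21 (29.5-fold).

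The genes often used as references were not equal. Gapdh gave 12.12 in control blood and 11.81 in NNK blood (-0.30), and -1.21 after the 75th percentile shift. Actb gave 14.27 and 13.20 (-1.06), and -2.09 after that shift.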

How the data were processed

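RNA from the 2 blood clots was labelled with Cy3 and hybridised to Arraystar rat lncRNA arrays on an Agilent platform. The deposited scanner files hold background-subtracted processed signal intensities, made by the authors with Agilent Feature Extraction 10.5.1.1 per the submitters' processing notes. The authors' own table holds log2 values after quantile normalization in GeneSpring over the series, used here as an alternative only. Log2 processed signals of all spots that were not controls were quantile-normalized over the 2 blood arrays with limma 3.58.1 in R 4.3.3. Spots marked as outliers were left out, spots of a probe were averaged, and mRNA probes with over 50% of spots well above background on both arrays were kept. RefSeq accessions were matched to gene names through RefSeq's GRCr8 table for 14274 of 15323 mRNA probes. The brightest probe stood for a gene. Of 152 genes with several probes, Tmub1 alone had probes 2-fold apart in opposite directions. A further 140 probes above background on both arrays had no value after outlier spots were removed.

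The 35 gene lists and the comparison itself were chosen with earlier results of these data known. Named genes are the 15 largest differences each way past 2-fold in 4 normalizations, up to 4 each way per list, the defining markers, 5 bounds each way, Gapdh and Actb, and exceptions are marked. A few genes that this rule names are not reported here. Promoters are RefSeq's, GRCr8, the first listed per gene. The fold calculation was tested on simulated data. The 12 alternatives covered scaling, background correction, filters on dim probes, outlier spots, the authors' values and 1 probe per gene. With 1 array per group, the number of arrays limits the precision.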

Additional observations from a re-analysis of the deposited data

How the results depend on the processing

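The counts of mRNA probes at least 2-fold apart, 1735 higher and 1119 lower in NNK blood, moved by over 1.5 times under several alternatives. Normexp background correction gave 1082 higher and 529 lower, and in the dimmest of 3 equal parts of the probes 6.7% then differed 2-fold against 35.3%. A processed signal of at least 100 on both arrays gave 743 and 685 of 4704 probes. Probes above background on at least 1 array gave 2628 and 1795 of 10107, and no filter gave 3070 and 2285 of 15120. The number lower was 1924 after the 75th percentile shift and 1786 with equal medians. Quantile normalization over all 8 arrays or over mRNA spots only, a floor of 5, outlier spots kept, the authors' values and 1 probe per gene left both counts within 1.5 times. Of 1912 values of 239 named genes under alternatives, 1503 moved by less than 1.5-fold, 408 by more, and 1 gene past 2-fold turned sign (Egr2, -1.10 to 0.12 after normexp). Within 2-fold, 19 more values had the opposite sign, such as Alas2 (0.13 to -0.92) and Csf1r (0.86 to -0.02) after the 75th percentile shift. Of 212 named genes past 2-fold, 153 stayed past it in the same direction under every alternative that normalized or filtered spots differently. A floor of 5 and outlier spots kept were among the settings behind the 1912 values. Neither moved any gene named for the largest differences, so part of the 1503 is no check. Those genes were also picked for staying past 2-fold under several normalizations, so the 153 partly reflects that choice. No paired analysis was possible because each blood group had 1 array and no result comes from a test. The median relative error of the processed signal over probes was 10.1% on the control array and 10.2% on the NNK array by the scanner software's error model. The cause of these shifts was not tested.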

Other observations

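Genes that lie next to each other among the compared genes, in the gene order of GRCr8, gave runs of at least 4 that were all higher or all lower by 2-fold. These runs were looked for after the values were seen, and they have no test. The longest, of 9 genes, held Usp40 and the 8 compared Ugt1a genes, all higher, whose last exons are shared. A run of 5 neighbouring Gimap GTPase genes of lymphocytes, Gimap8, Gimap4, Gimap7, Gimap1 and Gimap5, was higher, as were Tnf, Ltb, Lst1, Aif1 and Prrc2a in the MHC class III region. Esam and Nrgn, both expressed in platelets, stood in a run of 5 lower genes with Acrv1, Chek1 and Stt3a.

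Lists for other tissues and for plasma proteins gave small counts, to be read against 21.2% higher and 13.4% lower of all genes. Complement and coagulation genes had 6 higher and none lower of 20 (median 0.43), led by Cfp, properdin (2.42), C2 (2.30), Cfd, adipsin (2.18), and C4a (1.89). Liver genes had 2 of 14 in each direction (median -0.25), with Alb lower (-1.88) and Fetub (2.20) and Hp, haptoglobin (1.84), higher. Endothelium and stroma genes had 3 lower and none higher of 10 (median -0.66), Esam being the lowest (-2.95), and Pecam1 gave 6.60 and 6.62. Muscle genes had 1 higher and 2 lower of 7 (median 0.13), and adipocyte genes 3 of 12 in each direction (median -0.47). Among muscle genes outside those 7, Mybpc3 was above background on the control array alone (log2 signals 8.98 and 3.04). Myh7, Tnnc2, Csrp3 and Tnni1 were above it on the NNK array alone, but their NNK spots were marked as outliers.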
